A study of Mus musculus with 26 samples.

Results

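The colon of mice fed GW3965, a synthetic agonist of the liver X receptors (LXR), was compared between day 70 of AOM–DSS tumorigenesis and mice on the same diet that received neither AOM nor DSS. The comparison asks what tumour development changed in colonic tissue while LXR was activated. The comparison was defined by the sample titles and takes 7 of the 26 samples sequenced: 3 from day 70 and 4 untreated ones, called day 0. All 7 samples came from wild-type C57BL/6J males of 1 vendor, about 10 weeks old at the start, that ate the GW3965 diet. The documents of the study differ on whether a bulk sample was 1 mouse or a pool of several, so n counts samples. The day 70 group received 10 mg per kg of azoxymethane (AOM), a carcinogen that acts on the colon, and then 3 cycles of dextran sodium sulfate (DSS) in the drinking water, 7 days each, with regular water in between. DSS injures the colonic epithelium. The day 0 group received neither agent and was taken after 22 days (2 samples) or 43 days (2 samples) of the diet. By these labels the day 70 group was older and longer on the diet. The 4 day 0 samples came from 1 cage and the 3 day 70 samples from 3 other cages, so AOM–DSS, age, diet length and cage cannot be told apart. One day 0 sample (replicate 2 of 43 diet days) is titled as GW3965 but labelled as standard diet. It was placed by its title, and the summed level of 15 LXR target genes in it was 2620 TPM (a length-corrected share of the sample's transcripts), within the 2440 to 3010 of the other 3 day 0 samples and outside the 1340 to 1680 of the 4 untreated samples of the standard diet.

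The liver X receptors (LXRα, encoded by *Nr1h3*, and LXRβ) are nuclear receptors for oxysterols. They switch on genes that export cholesterol from the cell, such as *Abca1* and *Abcg1*, and genes of fatty acid synthesis through *Srebf1*. In the AOM–DSS model, a carcinogen and repeated rounds of injury and repair lead to tumours of the distal colon whose epithelium carries active Wnt signalling. Injured colonic epithelium passes through a repair state with fetal-like genes before mature colonocytes, which absorb salt and water and detoxify luminal compounds, return. RNA of whole colonic tissue was sequenced, so that fewer cells of a type and less RNA per cell cannot be told apart.

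Positions are given on GRCm38. The 7 samples held 18328026 to 27251607 counts each, and their RNA integrity numbers were 9.4 to 10. Colonic epithelium was present in every sample, although the summed level of its 12 markers was 2880 TPM in day 70 replicate 1 against 9920 to 13700 in the other 6. The 3 day 70 samples differed from each other in the tissues they held. Replicate 1 had 31100 TPM over 12 skeletal muscle genes, against 30.1 and 39.1 in replicates 2 and 3 and 30.6 to 87.2 at day 0. Replicates 1 and 3 had 28900 and 11700 TPM over 16 genes of stratified (squamous) epithelium, against 15.5 in replicate 2 and 13.8 to 21.3 at day 0. Replicate 2 was the day 70 sample richest in lymphocyte RNA, with 557 TPM over 15 B cell genes against 101 and 44.1 in replicates 1 and 3. On the first principal component, with 57.9% of the variance, day 0 samples lay between -71.6 and -56.7 and day 70 replicates 1, 2 and 3 at 154, 0.359 and 95.9. Results are therefore given with all 3 day 70 samples, and where it matters without replicate 1 and for replicate 2 alone, the day 70 sample with neither skeletal muscle nor stratified epithelium RNA above the day 0 range.

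**Figure D1:**
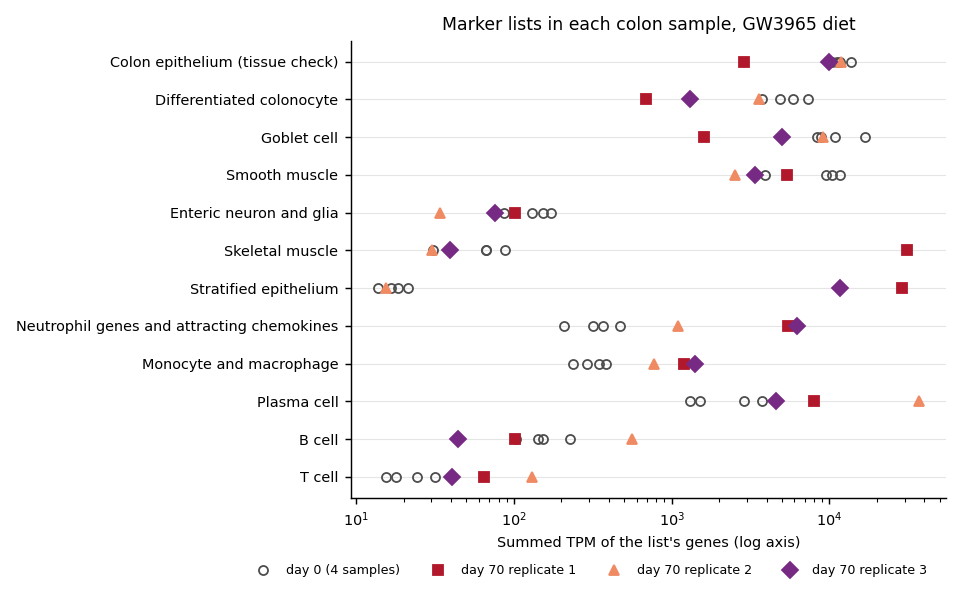
Summed TPM of 12 marker lists (log axis) in each GW3965 diet sample, with day 0 samples as open circles and the 3 day 70 replicates as filled symbols. Skeletal muscle RNA stood out in day 70 replicate 1 (31100 TPM), stratified epithelium RNA in replicates 1 and 3 (28900 and 11700), and B cell RNA in replicate 2 (557).

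Of 17063 genes tested, 2513 (14.7%) rose and 1164 (6.82%) fell from day 0 to day 70 at an adjusted P under 0.05 (edgeR quasi-likelihood F-test). Among these, 1972 rose and 693 fell by at least 2-fold. The 3 day 70 samples lay above all 4 day 0 samples in CPM (the gene's share of the scaled total count) for 3116 genes tested (18.3%) and below them for 2229 (13.1%), whether called or not. Of the genes called, 1754 higher and 1099 lower ones had groups that did not overlap. Day 70 replicate 2 was above the day 0 range in 76.9% of the genes called higher, against 96.9% and 91.2% for replicates 1 and 3. It was below the range in 97.1% of the genes called lower. These shares follow in part from the calls, which used the same samples. Over all genes tested, replicates 1, 2 and 3 were above the day 0 range in 41.3%, 37.2% and 40.8%. Replicate 2 was below it in 31.8% of all genes tested. Without replicate 1, 1891 genes rose and 1033 fell, and without replicate 3 1982 rose and 732 fell. Replicate 2 alone gave 684 higher and 154 lower genes, assuming that a lone sample varies like the other groups. Higher genes made up 68.3% of all calls, and 54.1% in a fit of the 7 samples alone, in which the median log2 change of all genes was -0.00692 instead of 0.107.

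The genes of smallest P that rose without overlap are known for epithelial transport, repair and the control of inflammation. Day 0 values are given in the order of replicates 1 and 2 of 22 diet days and 1 and 2 of 43 diet days, and day 70 values in the order of replicates 1, 2 and 3. *Slc5a9*, a sodium-coupled sugar transporter (ENSMUSG00000028544.14, chromosome 4, 111875375 to 111902918), had 3.19, 4.46, 5.38 and 3.88 CPM at day 0 and 49.2, 38 and 30.8 CPM at day 70, a log2 change of 3.21 (standard error 0.28, adjusted P = 6.89e-07). *Plet1*, a surface protein of epithelial progenitors (ENSMUSG00000032068.14, chromosome 9, 50494525 to 50505482), had 1.82, 2.04, 1.46 and 1.19 CPM at day 0 and 107, 395 and 209.5 CPM at day 70, a log2 change of 7.18 (standard error 0.63, adjusted P = 6.89e-07). Both genes were several-fold above day 0 in each of the 3 samples, and *Plet1* was highest in replicate 2. *Prdm1*, which encodes the transcriptional repressor BLIMP1, rose by 2.80 on the log2 scale (adjusted P = 6.89e-07), from 2.46, 4.16, 3.22 and 2.93 CPM to 26.2, 21.4 and 19.1 CPM. *Zc3h12a*, an RNase that degrades inflammatory mRNAs, rose by 2.57 (adjusted P = 1.69e-06), and *Nfkbiz*, a nuclear cofactor of NF-κB, by 2.15 (adjusted P = 6.89e-06). *Osmr*, the receptor of oncostatin M, rose by 1.81 (adjusted P = 5.87e-06). The other genes of this kind were *Gm14137* (log2 change 5.31 ± 0.50, adjusted P = 1.69e-06, ± giving the standard error) and *Ceacam12*, of the carcinoembryonic antigen family (log2 change 7.28 ± 0.77, adjusted P = 6.89e-06), which were at most 0.529 and 0.173 CPM at day 0.

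The genes of smallest P that fell include enzymes of sulfonation, taurine synthesis and lipid metabolism. *Sult1a1*, a phenol sulfotransferase (ENSMUSG00000030711.16, chromosome 7, 126672865 to 126676432), had 269, 199, 198 and 200.3 CPM at day 0 and 18.4, 26.6 and 5.65 CPM at day 70, a log2 change of -3.68 (standard error 0.46, adjusted P = 2.73e-05). *Csad*, which makes the taurine precursor hypotaurine, had 65, 62.2, 63.7 and 55.4 CPM at day 0 and 24.4, 26.2 and 25.6 CPM at day 70, a log2 change of -1.28 (standard error 0.14, adjusted P = 1.2e-05). *Csad* differed little among the 3 day 70 samples, while *Sult1a1* was lowest in replicate 3. The aldo-keto reductase *Akr1c19* changed by -3.01 and *Cela1*, an elastase, by -2.85 on the log2 scale. *Hacd1*, of very-long-chain fatty acid synthesis, changed by -1.29. *Tspan33* and *Vstm5*, both membrane proteins, changed by -1.95 and -1.97. Adjusted P values of these 5 genes lay between 1.77e-05 and 4.89e-05.

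**Figure D2:**
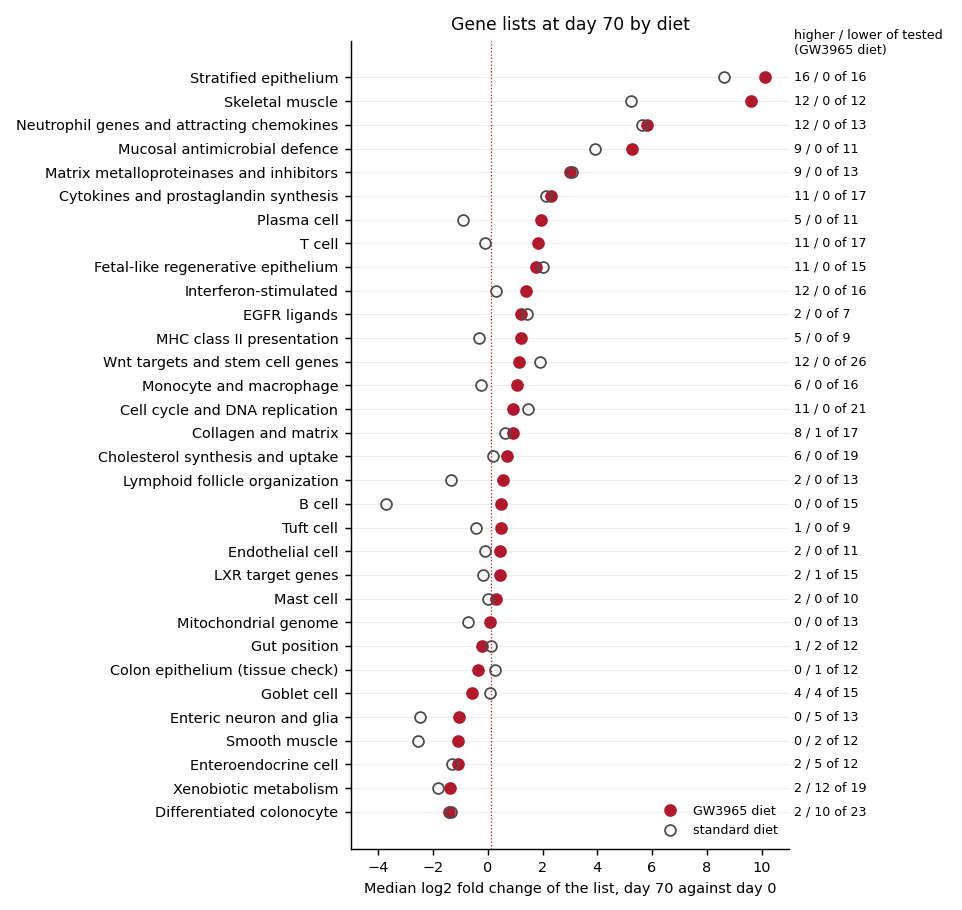
Median log2 fold change of 32 gene lists from day 0 to day 70 on the GW3965 diet (filled) and the standard diet (open), with the number of members called higher and lower of those tested on the GW3965 diet; the dotted line marks the median of all genes on the GW3965 diet (0.107). Antimicrobial and neutrophil lists lay at 5.27 and 5.83, mature colonocyte and xenobiotic lists at -1.43 and -1.40, and B cell genes at 0.49 against -3.74 on the standard diet.

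Of 15 LXR target genes tested between day 0 and day 70 of the GW3965 diet, 2 rose, 1 fell and 12 did not pass the test, shares near the 14.7% and 6.82% of all genes, with a median log2 change of 0.43 beside 0.107 for all genes. *Abca1*, a cholesterol exporter (ENSMUSG00000015243.4, chromosome 4, 53030787 to 53159895), had 113, 148, 132 and 152 CPM at day 0 and 288, 220.2 and 161 CPM at day 70, a log2 change of 0.71 (standard error 0.24, adjusted P = 0.0359). *Abcg1*, which passes cholesterol to high-density lipoprotein (ENSMUSG00000024030.7, chromosome 17, 31057675 to 31117988), had 89.3, 83.3, 74 and 76.5 CPM at day 0 and 109, 179 and 104 CPM at day 70, a log2 change of 0.69 (standard error 0.25, adjusted P = 0.0479). Neither gene overlapped between the groups, but *Abca1* in replicate 3 lay close to the day 0 maximum, and both calls were lost with the share of counts on ribosomal protein mRNA as an additive term, in a fit of the 7 samples alone and whenever 1 of the 4 day 0 samples was left out. *Srebf1*, the master regulator of fatty acid synthesis, had 555, 517, 506 and 495 CPM and 505, 439.9 and 611 CPM, a log2 change of 0.00 (standard error 0.18, adjusted P = 0.998). *Nr1h3*, the LXRα gene itself, fell from 34, 30.1, 36 and 32.8 CPM to 10.03, 19.1 and 7.74 CPM, a log2 change of -1.43 (standard error 0.28, adjusted P = 0.001), and all 3 day 70 samples were below all day 0 samples. The other members, among them *Apoe* (0.78), *Lpl* (1.28), *Fasn* (0.84) and *Abcg5* (-0.97), did not pass the test. On the standard diet *Nr1h3* changed by -2.03 (adjusted P = 6.9e-05) and *Abcg1* by 1.00 (adjusted P = 0.00501). There *Srebf1* changed by 0.54 (adjusted P = 0.0279) and *Abca1* by 0.23 (adjusted P = 0.5). No member of the list was called in the difference between the diets. At day 70 the summed level of the list was 2780 to 4390 TPM on GW3965 and 1040 to 1430 on the standard diet.

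Genes of cholesterol synthesis and uptake, which sterol shortage switches on through SREBP2, rose in 6 of 19 cases with a median log2 change of 0.70. These were *Lss*, *Mvk*, *Fdps*, *Fdft1*, *Mvd* and *Sqle*, all enzymes between mevalonate and lanosterol. *Lss*, which closes the sterol rings, had 48.9, 32.5, 29.8 and 24.5 CPM at day 0 and 93.6, 50.5 and 58.9 CPM at day 70, a log2 change of 1.00 (standard error 0.30, adjusted P = 0.0219). *Fdps* had 124, 68.2, 61.6 and 64.7 CPM and 149, 154 and 234 CPM, a log2 change of 1.17 (standard error 0.36, adjusted P = 0.0255). The transcription factor gene *Srebf2* (0.44, adjusted P = 0.169) and *Hmgcs1*, an early enzyme of the pathway (0.77, adjusted P = 0.218), did not pass the test. On the standard diet 0 of 19 were called higher and 1 lower (median 0.18), and the difference between the diets was called for 0. On the GW3965 diet the calls turned on single samples and on the day 0 samples used. Leaving out 1 of the 7 gave from 0 calls (without replicate 2 of 22 diet days or replicate 1 of 43, with 6 genes at an unadjusted P under 0.05 in each) to 7 (without replicate 1 of 22 diet days). Against day 0 samples of 22 diet days alone 0 were called (3 at an unadjusted P under 0.05, median 0.32). Against those of 43 diet days 8 were called (16 at an unadjusted P under 0.05, median 1.07). DESeq2 called 6 with all samples. In replicate 2 of day 70 alone edgeR called 0, and 0 had an unadjusted P under 0.05.

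Wnt targets and stem cell genes rose in 12 of 26 cases and the other 14 did not pass the test (median log2 change 1.14). Of the 26, 13 were above the day 0 range in all 3 samples, beside 18.3% of all genes. Wnt signalling frees β-catenin to act with TCF factors at DNA sites of the form CTTTGAT. The 300-base promoter windows of the called members *Mmp7* and *Sp5* are shown because they hold this motif, in capitals on either strand (ATCAAAG on the other), while the windows of *Cd44* and *Olfm4*, the other genes of smallest P in the list, do not hold these letters. Sequences are from RefSeq (GRCm38.p6), run 5′ to 3′ along the gene's strand, and span 250 bases before to 50 after the start.
Mmp7, chr9:7691840-7692139, + strand: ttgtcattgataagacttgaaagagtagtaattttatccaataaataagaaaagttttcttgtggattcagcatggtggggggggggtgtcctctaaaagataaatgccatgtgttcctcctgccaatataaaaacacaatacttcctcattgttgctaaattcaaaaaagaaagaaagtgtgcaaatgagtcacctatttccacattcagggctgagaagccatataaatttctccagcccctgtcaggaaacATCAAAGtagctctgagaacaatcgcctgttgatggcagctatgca
Sp5, chr2:70474673-70474972, + strand: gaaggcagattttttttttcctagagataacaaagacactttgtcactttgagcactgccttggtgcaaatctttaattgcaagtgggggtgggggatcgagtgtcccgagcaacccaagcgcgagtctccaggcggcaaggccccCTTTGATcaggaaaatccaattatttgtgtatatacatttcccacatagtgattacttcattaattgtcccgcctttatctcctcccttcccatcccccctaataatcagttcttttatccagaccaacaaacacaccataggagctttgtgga
The table holds windows for 9 of the 12 called members, 15 windows in all, of which 3 (20%) carry the motif, 2 of them overlapping windows of *Mmp7* with the same match. Of the 15916 windows of all genes tested that the table holds, 2.86% carry it. A match is a description and not a site.

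*Cd44*, a hyaluronan receptor of crypt base cells (ENSMUSG00000005087.17, chromosome 2, 102811141 to 102901665), had 28.3, 38.1, 34.3 and 27.6 CPM at day 0 and 244, 77.6 and 315 CPM at day 70, a log2 change of 2.73 (standard error 0.32, adjusted P = 1.65e-05). *Mmp7*, a protease made by Wnt-active tumour epithelium (ENSMUSG00000018623.9, chromosome 9, 7692090 to 7699585), had 0.344, 0.0866, 0.0441 and 0.0994 CPM at day 0 and 38.9, 76.3 and 233 CPM at day 70, a log2 change of 9.64 (standard error 1.32, adjusted P = 5.43e-05). Its transcript was nearly absent at day 0 and at least 38.9 CPM in each day 70 sample, with the highest value in replicate 3. *Sp5*, a zinc finger repressor directly induced by Wnt (ENSMUSG00000075304.2, chromosome 2, 70474923 to 70477729), had 0, 0.0866, 0.132 and 0.0994 CPM and 3.48, 6.19 and 25.9 CPM, a log2 change of 7.10 (standard error 1.11, adjusted P = 0.000188). *Olfm4*, a stem cell glycoprotein that normal mouse colon barely expresses (ENSMUSG00000022026.7, chromosome 14, 79984081 to 80023139), had 2 counts over the 4 day 0 samples and 656 over the 3 day 70 samples, which held 4.71, 0.81 and 19.2 CPM. The ratio was 377-fold (95% exact interval 104 to 3120, covering counting error only). Replicate 3 was the highest of the day 70 samples for each of these 4 genes. The Wnt feedback inhibitors *Notum* (7.99, adjusted P = 0.000348), *Wif1* (5.32, adjusted P = 0.00111) and *Apcdd1* (3.28, adjusted P = 0.000905) rose, as did the TCF factors *Tcf7* (1.57) and *Lef1* (2.25) and *Myc* (1.03). The stem cell genes *Lgr5* (1.25, adjusted P = 0.206) and *Ascl2* (0.46, adjusted P = 0.561) and the Wnt feedback gene *Axin2* (1.02, adjusted P = 0.173) did not pass the test. Without day 70 replicate 1 or 2 the list still gave 12 calls, and without replicate 3 it gave 9 (median 0.58). Leaving out a day 0 sample gave 9 or 10 calls. In replicate 2 alone the median log2 change was 0.57.

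Of 15 genes of the fetal-like repair state, 11 rose and 4 did not pass the test (median 1.77). *Anxa1*, a phospholipid-binding protein of repair (ENSMUSG00000024659.15, chromosome 19, 20373428 to 20390944), had 309.8, 251, 196 and 232 CPM at day 0 and 1816, 353 and 3999 CPM at day 70, a log2 change of 3.06 (standard error 0.50, adjusted P = 0.000272). It was much higher in replicates 1 and 3, which held stratified epithelium RNA, than in replicate 2. *Sprr1a*, a cornified envelope protein, was also highest in replicates 1 and 3, with 726, 16.9 and 351 CPM at day 70 against 3.29, 6.67, 0.221 and 0.994 CPM at day 0 (log2 change 7.02 ± 1.14, adjusted P = 0.000239). *Msln*, the surface protein mesothelin, had 1.59, 2.17 and 12.1 CPM against 0.54, 0.346, 0.485 and 0.249 CPM (log2 change 3.69 ± 0.75, adjusted P = 0.00158). Several of these genes are also expressed by stratified epithelium, and in replicate 2 alone 2 of 15 were called, against 11 without replicate 1 and 6 without replicate 3. The part of stratified epithelium in these changes was not tested.

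EGFR ligands, which drive crypt proliferation during repair, rose in 2 of 7 cases, beside 14.7% of all genes. *Hbegf*, a membrane-anchored ligand, had 15.8, 6.97, 4.94 and 14.6 CPM at day 0 and 31.1, 45.6 and 49 CPM at day 70, a log2 change of 1.99 (standard error 0.54, adjusted P = 0.012). *Epgn* rose at low level, with 0.0983, 0.0433, 0.0441 and 0 CPM at day 0 and 1.02, 0.368 and 0.389 CPM at day 70 (log2 change 3.50 ± 0.80, adjusted P = 0.00378). Amphiregulin (*Areg*) changed by 0.96 with overlapping groups and did not pass the test (adjusted P = 0.262), nor did *Ereg* (1.22, adjusted P = 0.119) or *Tgfa* (0.69, adjusted P = 0.172).

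Cell cycle and DNA replication genes rose in 11 of 21 cases (median 0.93). *Top2a*, the topoisomerase of dividing cells (ENSMUSG00000020914.17, chromosome 11, 98992943 to 99024189), had 42.7, 34.3, 41.8 and 52 CPM at day 0 and 80.2, 129 and 169 CPM at day 70, a log2 change of 1.56 (standard error 0.33, adjusted P = 0.00196). *Mki67*, the proliferation marker, had 54.5, 46.4, 52.5 and 65 CPM and 84.2, 128 and 121 CPM, a log2 change of 1.03 (standard error 0.23, adjusted P = 0.00299). Replicate 1 was the lowest of the day 70 samples for both genes, and still above the day 0 range. *Rrm2* and *Ccnb1* rose by 1.97 and 1.27 (adjusted P = 0.00446 and 0.00637), while *Pcna* (0.40, adjusted P = 0.427) did not pass. The number of calls was 13 without replicate 1, 5 without replicate 2, 3 without replicate 3 and 5 to 7 when a day 0 sample was left out.

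Genes of mature colonocytes fell in 10 of 23 cases and rose in 2 (median -1.43). *Car1*, the carbonic anhydrase of proximal and surface colonocytes (ENSMUSG00000027556.15, chromosome 3, 14766216 to 14808368), had 1352, 1063, 417 and 953 CPM at day 0 and 26.3, 81.2 and 99.5 CPM at day 70, a log2 change of -3.78 (standard error 0.55, adjusted P = 9.45e-05). *Car2* had 1470, 1133, 926 and 905 CPM and 178, 362 and 159 CPM, a log2 change of -2.25 (standard error 0.34, adjusted P = 0.00012), and *Hsd11b2*, which protects the mineralocorticoid receptor from glucocorticoids, had 537, 366, 387 and 358 CPM and 29.6, 137 and 71.1 CPM, a log2 change of -2.38 (standard error 0.39, adjusted P = 0.000248). In all 3 genes every day 70 sample was below every day 0 sample. The chloride-bicarbonate exchanger *Slc26a3* (-3.92), the epithelial sodium channel subunits *Scnn1g* (-3.64) and *Scnn1b* (-1.65), the water channel *Aqp8* (-2.96), *Car4* (-4.21), *Abcb1a* (-2.03) and *Guca2a* (-1.85) also fell. The 2 exceptions were *Clca4b*, of the chloride channel accessory family, with 20.1, 19.9, 27.1 and 18.7 CPM at day 0 and 390.3, 2868 and 691 CPM at day 70 (log2 change 5.94 ± 0.78, adjusted P = 4.17e-05), and the sodium-hydrogen exchanger *Slc9a3*, whose groups overlapped (3.45, adjusted P = 0.0338). The summed level of the list was lowest in replicate 1 (688 TPM), where colonic epithelium markers were also lowest, and highest in replicate 2 (3600 TPM, against 3710 to 7350 at day 0). Replicate 2 alone gave 3 lower calls, and 1 of the 2 higher calls was lost when replicate 2 or 3 of day 70, or any day 0 sample but replicate 1 of 22 diet days, was left out.

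Xenobiotic metabolism genes, which detoxify dietary and bacterial compounds, fell in 12 of 19 cases and rose in 2 (median -1.40), *Sult1a1* among them. *Ephx2*, an epoxide hydrolase, had 19.5, 18, 19.2 and 18 CPM at day 0 and 9.32, 9.54 and 5.93 CPM at day 70, a log2 change of -1.18 (standard error 0.22, adjusted P = 0.000716). *Cyp2c55*, a cytochrome P450 of the colon, had 11.8, 22.5, 46 and 25.1 CPM and 1.23, 1.73 and 2.69 CPM, a log2 change of -3.79 (standard error 0.75, adjusted P = 0.00124). Neither gene overlapped between groups. *Gsta4*, a glutathione transferase, was called higher but had 21.3, 20.1, 26.4 and 27 CPM at day 0 and 349.8, 22.5 and 390.3 CPM at day 70, so that replicate 2 stayed within the day 0 range. *Cyp2b10* rose (3.80, adjusted P = 0.0101) in all 3 samples. Replicate 2 alone gave 2 lower and 0 higher calls with edgeR, and 6 lower and 0 higher at an unadjusted P under 0.05.

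Goblet cell genes were divided, with 4 of 15 higher and 4 lower. *Retnlb*, a bactericidal goblet cell protein (ENSMUSG00000022650.7, chromosome 16, 48816856 to 48818892), had 0.197, 0.173, 0.177 and 0 CPM at day 0 and 4.25, 30.6 and 34.3 CPM at day 70, a log2 change of 7.32 (standard error 1.02, adjusted P = 6e-05). *Ang4*, another antimicrobial product, had 0.688, 1.39, 0.132 and 0.0497 CPM and 8.96, 12.1 and 62.5 CPM (log2 change 5.59 ± 1.21, adjusted P = 0.00245), and the membrane mucins *Muc4* (1.80) and *Muc1* (1.91) rose too. The trefoil peptide gene *Tff3* fell, with 1219, 744, 734 and 693 CPM at day 0 and 43.8, 324 and 153 CPM at day 70, a log2 change of -2.29 (standard error 0.50, adjusted P = 0.00248), and so did the goblet cell transcription factor *Atoh1* (-1.53), *Clca1* (-1.97) and *Zg16* (-2.14). The main secreted mucin *Muc2* (0.32, adjusted P = 0.592) did not pass the test. Lower calls numbered 2 without day 70 replicate 1 or day 0 replicate 1 of 22 diet days, and 8 without day 70 replicate 2.

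Among enteroendocrine genes, 5 of 12 fell and 2 rose, beside 6.82% and 14.7% of all genes. The somatostatin gene *Sst* had 9.83, 9.79, 8.08 and 7.01 CPM at day 0 and 2.15, 2.54 and 2.01 CPM at day 70, a log2 change of -1.95 (standard error 0.43, adjusted P = 0.00268), and *Insl5*, a hormone of the distal colon, had 69.8, 45.8, 32.6 and 28.5 CPM and 1.54, 19.7 and 3.99 CPM, a log2 change of -2.39 (standard error 0.62, adjusted P = 0.00866). Neurotensin (*Nts*) rose from 0.147, 0.13, 0.0441 and 0.398 CPM to 2.25, 0.589 and 3.64 CPM (log2 change 3.57 ± 0.69, adjusted P = 0.00107), as did *Cck* (1.60, adjusted P = 0.0181). Lower calls numbered 3 without replicate 1, 8 without replicate 2 and 2 without replicate 3, and 1 gene was called higher without replicate 2 or without day 0 replicate 1 of 22 diet days. Of 9 tuft cell genes, edgeR called 1 higher and 0 lower (2 and 1 at an unadjusted P under 0.05), beside 14.7% and 6.82% of all genes. DESeq2 called 2 higher and 0 lower. The called gene was *Avil*, an actin-bundling protein, at 1.57, 1.86, 1.46 and 1.09 CPM and 4.45, 14.2 and 36.8 CPM (log2 change 3.62 ± 0.56, adjusted P = 0.000157), while *Dclk1* (-0.30) and *Pou2f3* (1.01) did not pass, and without replicate 1 the calls were 2 higher and 1 lower.

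**Figure D3:**
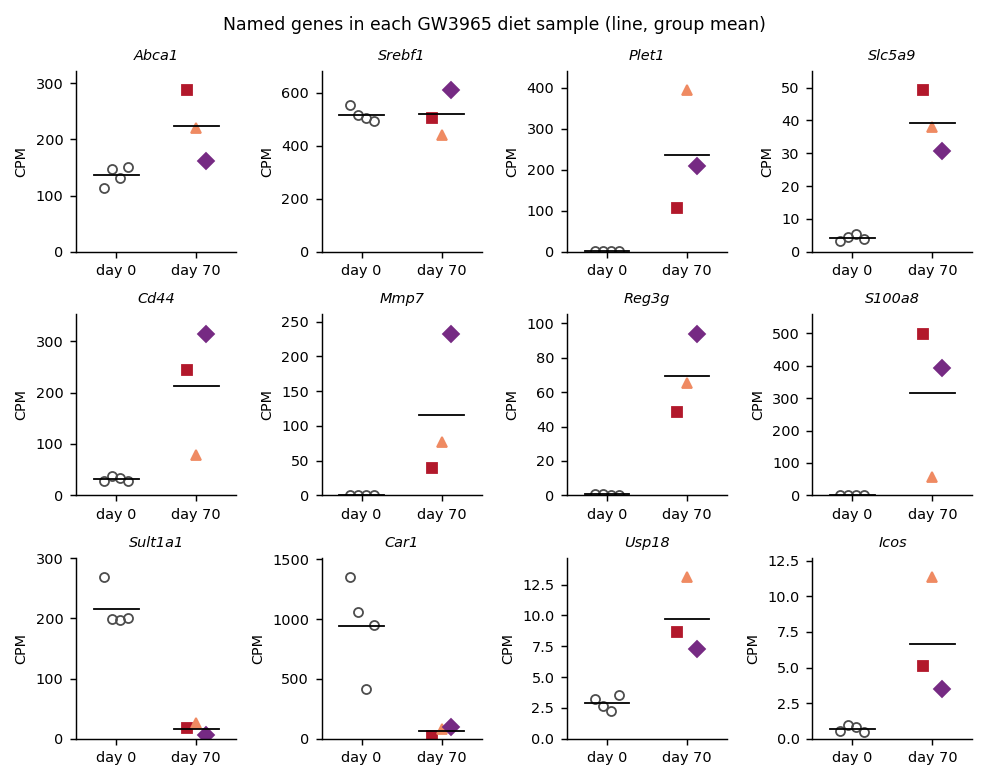
CPM of 12 genes in the GW3965 diet samples, on linear axes from 0, with day 0 samples as open circles, day 70 replicates 1, 2 and 3 as squares, triangles and diamonds, and group means as lines. *Plet1*, *Slc5a9*, *Mmp7*, *Reg3g*, *S100a8*, *Usp18* and *Icos* were above every day 0 sample at day 70, *Sult1a1* and *Car1* below, and *Srebf1* overlapped; *Usp18* and *Icos* were highest in replicate 2.

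Antimicrobial genes of the mucosa rose in 9 of 11 cases (median 5.27), and 9 were called higher in every alternative fit run, replicate 2 alone included, with 2 called lower without replicate 2. *Reg3g*, a lectin that kills Gram-positive bacteria (ENSMUSG00000030017.2, chromosome 6, 78466269 to 78468872), had 0.983, 0.52, 0.221 and 0.149 CPM at day 0 and 48.6, 65.5 and 94.1 CPM at day 70, a log2 change of 7.20 (standard error 1.04, adjusted P = 9.17e-05). *Nos2*, the inducible nitric oxide synthase (ENSMUSG00000020826.8, chromosome 11, 78920787 to 78960254), had 1.38, 3.85, 3.13 and 1.59 CPM at day 0 and 34, 214 and 43.2 CPM at day 70, a log2 change of 5.27 (standard error 0.76, adjusted P = 9.45e-05). *Nos2* was highest in replicate 2, whereas *Ltf*, the iron-binding lactoferrin of neutrophil granules and glands, was highest in replicates 3 and 1 (1287, 25.2 and 4281 CPM against 0.246, 0.13, 0.706 and 0.0497 CPM, log2 change 12.63 ± 1.45, adjusted P = 1.58e-05). *Pla2g2a*, a secreted bactericidal phospholipase, had 12.4, 54.5 and 93.2 CPM against 1.33, 0.39, 0.441 and 0.547 CPM (log2 change 6.31 ± 0.81, adjusted P = 3.38e-05). *Reg3b* (9.50), *Lcn2* (5.24), *Saa3* (5.61), *Duoxa2* (2.27) and the hydrogen peroxide-generating *Duox2* (1.99) rose. *Saa1* (-1.28, adjusted P = 0.151) and the antibody transporter *Pigr* (-0.80, adjusted P = 0.16) did not pass the test. *Il22*, which induces the REG3 genes in epithelium, was at 0 counts in all day 0 samples and at 0.102, 1.55 and 0.0353 CPM at day 70, called higher (adjusted P = 0.016). Most of its signal was in replicate 2, with values close to 0 in replicates 1 and 3, whereas *Reg3g* was highest in replicate 3. A link between *Il22* and the REG3 genes was not tested.

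Cytokine and prostaglandin genes rose in 11 of 17 cases (median 2.32). In a fit of the 7 samples alone 13 of the 17 passed the filter on low counts, and 7 were called. *Il1b*, a cytokine of activated myeloid cells (ENSMUSG00000027398.13, chromosome 2, 129364570 to 129371139), had 1.23, 3.33, 1.54 and 2.09 CPM at day 0 and 17.4, 67.3 and 128 CPM at day 70, a log2 change of 5.10 (standard error 0.95, adjusted P = 0.000762). *Tnf* had 0.59, 1.04, 0.53 and 1.09 CPM and 4.76, 9.76 and 8.76 CPM, a log2 change of 3.25 (standard error 0.57, adjusted P = 0.000496), and *Il11*, a fibroblast cytokine that acts on epithelium, had 0.0491, 0.13, 0.221 and 0.0497 CPM and 0.87, 2.76 and 7.67 CPM, a log2 change of 4.97 (standard error 0.95, adjusted P = 0.000947). No day 70 sample was within the day 0 range of these 3 genes, and replicate 3 had the highest *Il1b* and *Il11*. *Il17a* (3.66), *Osm* (3.84), *Il10* (2.49) and *Tgfb1* (1.16) also rose, while *Ifng* (2.20, adjusted P = 0.201) and the cyclooxygenase *Ptgs2* (1.25, adjusted P = 0.213) did not pass. Without day 70 replicate 3 or day 0 replicate 1 of 22 diet days 7 of the 17 were called.

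Neutrophil genes and the chemokines that attract neutrophils rose in 12 of 13 cases (median 5.83). *S100a8*, a subunit of calprotectin (ENSMUSG00000056054.9, chromosome 3, 90668978 to 90670035), had 0.0983, 0.649, 0.574 and 0.249 CPM at day 0 and 499.6, 56.8 and 393 CPM at day 70, a log2 change of 9.61 (standard error 1.18, adjusted P = 2.53e-05). The chemokine gene *Cxcl5* (ENSMUSG00000029371.7, chromosome 5, 90759360 to 90761624) had 1.43, 3.38, 1.24 and 1.74 CPM and 177, 96.3 and 785 CPM, a log2 change of 7.49 (standard error 0.90, adjusted P = 2.33e-05). *Cxcr2*, the neutrophil receptor for it, had 0.344, 0.173, 0.397 and 0.298 CPM and 10.4, 9.03 and 33 CPM, a log2 change of 5.83 (standard error 0.92, adjusted P = 0.0002). Values were lowest in replicate 2 for all 3 genes, yet above every day 0 sample, and 8 of the 13 genes were called in that sample alone. *S100a8* and *S100a9* are also made by inflamed stratified epithelium, which replicates 1 and 3 held; its part was not tested. *Ly6g*, a defining neutrophil surface marker, did not pass (-1.05, adjusted P = 0.145).

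Monocyte and macrophage genes rose in 6 of 16 cases and the other 10 did not pass the test (median 1.05). Of the 16, 12 were above the day 0 range in all 3 day 70 samples, beside 18.3% of all genes. Without the standard diet day 43 sample of RNA integrity number 2.6, which shares the fit, 14 of the 16 were called higher. *Itgam*, the integrin CD11b (ENSMUSG00000030786.18, chromosome 7, 128062640 to 128118491), had 3.29, 6.11, 7.37 and 4.62 CPM at day 0 and 27.9, 23.1 and 20.2 CPM at day 70, a log2 change of 2.15 (standard error 0.40, adjusted P = 0.000768). *Arg1*, the arginase of alternatively activated macrophages and some epithelia, had 0.246, 0.953, 0.662 and 0.249 CPM and 577, 7.11 and 853 CPM, a log2 change of 9.79 (standard error 1.41, adjusted P = 8.72e-05), and was high in replicates 1 and 3. *Spp1*, which encodes osteopontin, had 0.59, 0.346, 0.221 and 0.199 CPM and 5.58, 3.83 and 43.6 CPM (log2 change 5.69 ± 0.97, adjusted P = 0.000379). *Ccr2* (1.75) and *Csf1r* (1.17) rose, and the complement genes *C1qa* (0.77), *C1qb* (0.84) and *C1qc* (0.74) were above day 0 in all 3 samples without passing the test. Of 10 mast cell genes, *Mcpt1* and *Mcpt2* were called higher, beside 14.7% of all genes. Their groups overlapped, and most of the signal was in replicate 2 (0.205, 11.7 and 1.59 CPM for *Mcpt1*, against 0.295, 1.04, 0.75 and 0.646 CPM). Both calls were lost without replicate 2 and when any day 0 sample was left out.

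T cell genes rose in 11 of 17 cases (median 1.82), and 12 were above the day 0 range in all 3 samples, beside 18.3% of all genes. *Icos*, a costimulatory receptor of activated T cells (ENSMUSG00000026009.14, chromosome 1, 60977927 to 61000320), had 0.54, 0.953, 0.794 and 0.497 CPM at day 0 and 5.12, 11.4 and 3.5 CPM at day 70, a log2 change of 3.24 (standard error 0.59, adjusted P = 0.000669). *Ctla4* had 0.246, 0.433, 0.221 and 0.0994 CPM and 2.25, 7.15 and 1.2 CPM (log2 change 3.78 ± 0.75, adjusted P = 0.00134), and *Il2ra* had 1.47, 2.08, 2.16 and 1.59 CPM and 6.4, 9.5 and 5.37 CPM (log2 change 1.95 ± 0.40, adjusted P = 0.00153). All 3 genes were highest in replicate 2 and lowest in replicate 3. CTLA4 and the IL-2 receptor chain are prominent on regulatory T cells, whose transcription factor *Foxp3* rose by 3.05 (adjusted P = 0.00273). The CD3 chain genes *Cd3e* (1.98) and *Cd3g* (1.77), *Cd4* (1.81) and *Gzmb* (2.46) rose, while *Cd8a* (0.97, adjusted P = 0.25) and *Cd8b1* (0.99, adjusted P = 0.474) did not pass. Without replicate 2 the number of calls was 6, without day 0 replicate 1 of 22 diet days 7, and without replicate 1 of day 70 10.

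Interferon-stimulated genes rose in 12 of 16 cases (median 1.39), and 14 were above the day 0 range in all 3 day 70 samples, beside 18.3% of all genes. *Usp18*, a brake on interferon signalling (ENSMUSG00000030107.10, chromosome 6, 121245906 to 121270917), had 3.19, 2.68, 2.25 and 3.58 CPM at day 0 and 8.65, 13.1 and 7.28 CPM at day 70, a log2 change of 1.73 (standard error 0.32, adjusted P = 0.00067). *Ifit2* had 9.29, 10.04, 10.8 and 11.3 CPM and 28.9, 58.3 and 21.4 CPM, a log2 change of 1.81 (standard error 0.38, adjusted P = 0.00181), and *Oas2*, an antiviral sensor, had 1.18, 1.26, 0.794 and 0.746 CPM and 3.07, 7.59 and 3.82 CPM, a log2 change of 2.27 (standard error 0.52, adjusted P = 0.0036). Replicate 2 was the highest for each, and 6 genes were called without it. MHC class II genes, which present antigen to CD4+ T cells, rose in 5 of 9 cases. *H2-Ab1* had 157, 252, 254 and 150.1 CPM at day 0 and 339, 743 and 334 CPM at day 70, a log2 change of 1.22 (standard error 0.42, adjusted P = 0.04), and the invariant chain gene *Cd74* had 405, 636, 575 and 343 CPM and 886, 2323 and 1025 CPM, a log2 change of 1.53 (standard error 0.52, adjusted P = 0.0411). Without replicate 2, 1 of these 9 genes was called, and 1 or 2 when a day 0 sample was left out.

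B cell genes gave no call at day 70 on the GW3965 diet: 0 of 15 passed edgeR's test in either direction, 0 had an unadjusted P under 0.05, and DESeq2 called 0 as well (median log2 change 0.49). *Cd79a*, a chain of the B cell receptor complex (ENSMUSG00000003379.7, chromosome 7, 24897381 to 24902197), had 36.1, 41.6, 33.3 and 20.03 CPM at day 0 and 17.9, 113 and 7.52 CPM at day 70, a log2 change of 0.49 (standard error 0.72, adjusted P = 0.67). *Cd79b* had 22.3, 28.1, 18.8 and 11.8 CPM and 9.88, 61.1 and 3.96 CPM, a log2 change of 0.31 (standard error 0.73, adjusted P = 0.805). The day 70 samples lay on both sides of the day 0 range, with replicate 2 above it and replicates 1 and 3 below. Without replicate 2 the log2 changes were -1.38 for *Cd79a* and -1.57 for *Cd79b*, and 3 of the 15 genes were called lower. Of 11 plasma cell and immunoglobulin genes, 5 were called higher and 6 did not pass the test. *Igha*, the heavy chain of IgA, had 223, 448, 722 and 207 CPM at day 0 and 1644, 7994 and 729 CPM at day 70, a log2 change of 3.11 (standard error 0.92, adjusted P = 0.0189), and *Ighm* had 59.6, 77.1, 54.3 and 31.7 CPM and 116, 323 and 219 CPM, a log2 change of 1.98 (standard error 0.63, adjusted P = 0.0294). Replicate 2 was far above the other samples for *Igha*, and 1 plasma cell gene was called without it, without day 0 replicate 1 of 22 diet days or without day 0 replicate 2 of 43, against 8 without day 70 replicate 3. Of 13 genes of lymphoid follicle organization, 2 were called higher, a share near the 14.7% of all genes. *Madcam1*, the homing receptor of gut venules, had 4.86, 5.46, 3.97 and 4.28 CPM at day 0 and 12.1, 16.1 and 13.4 CPM at day 70, and *Bcl6*, of germinal centre B cells, had 9.88, 8.49, 14.5 and 17 CPM and 28.2, 19.3 and 28.1 CPM. Their log2 changes were 1.58 ± 0.51, adjusted P = 0.0302, and 1.01 ± 0.35, adjusted P = 0.0412. Between 0 and 1 of these calls held when 1 of the 7 samples was left out.

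The same contrast on the standard diet, in 7 other samples, called 2843 genes higher (16.7%) and 2331 lower (13.7%). Of the 3677 genes called on the GW3965 diet, 3402 had a change of the same sign on the standard diet and 2198 were called there in the same direction. Median log2 changes on GW3965 and on the standard diet were 5.27 and 3.92 in the antimicrobial list, 5.83 and 5.64 in the neutrophil, 2.99 and 3.07 in the metalloproteinase, 1.77 and 2.02 in the fetal-like and -1.43 and -1.35 in the mature colonocyte list. Wnt and stem cell genes were called higher in 12 of 26 cases on GW3965 and 22 of 26 on the standard diet (medians 1.14 and 1.92), and cell cycle genes in 11 and 21 of 21 (0.93 and 1.46), but whether these changes differ between the diets needs a test of the difference itself. In the same fit, that test called 0 genes of both lists (3 and 2 at an unadjusted P under 0.05, and 0 with DESeq2). Over all genes it called 1 gene of 17063 (0.00586%), *Enpp2*, with 2296 genes at an unadjusted P under 0.05.

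*Enpp2*, which encodes autotaxin, the enzyme that makes lysophosphatidic acid (ENSMUSG00000022425.16, chromosome 15, 54838901 to 54952892), had 49.1, 60.9, 52.7 and 51.8 CPM at day 0 and 80, 46.2 and 33.4 CPM at day 70 on the GW3965 diet, a log2 change of -0.01 (standard error 0.23, adjusted P = 0.977). On the standard diet it had 42.2, 52.6, 50.7 and 46.7 CPM at day 0 and 13, 9.23 and 10.5 CPM at day 70, a log2 change of -2.14 ± 0.25, adjusted P = 1.79e-05. The difference of the changes was 2.13 ± 0.33, adjusted P = 0.0301. All 3 standard diet samples at day 70 lay below the 3 GW3965 samples. The difference was between 1.70 and 2.38 in every alternative fit, with the lowest value without replicate 1 of day 70 on GW3965, but it did not keep its call in 14 of them, among them a fit of the 14 samples of days 0 and 70.

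B cell genes were called lower at day 70 in 13 of 15 cases on the standard diet (median -3.74), beside no call on GW3965. *Cd79a* had 15.4, 11.8, 75.2 and 22.3 CPM at day 0 and 2.47, 4.27 and 2.45 CPM at day 70 on the standard diet, and its changes differed between the diets by 3.83 ± 1.08, adjusted P = 0.151 on the log2 scale. *Cd79b* had 9.09, 6.09, 44.9 and 11.6 CPM and 1.05, 2.74 and 1.31 CPM, and differed by 3.69 ± 1.10, adjusted P = 0.16. All 15 differences had an unadjusted P under 0.05 and edgeR called 0 of them, whereas DESeq2 called 13, all with GW3965 above the standard diet, and 287 genes in all. The edgeR result also turned on day 70 replicate 3 of the GW3965 diet, the sample with the least B cell RNA of its group (44.1 TPM over the list, against 15 to 23 in the standard diet samples): without it, 474 genes differed between the diets, 13 of the 15 B cell genes among them. Replicate 2 had the most B cell RNA of the group (557 TPM, against 101 in replicate 1). Without replicate 2, 17 genes differed over all genes tested, and the B cell median on GW3965 was -1.46 instead of 0.49. T cell genes were called higher in 1 of 17 cases on the standard diet, and interferon-stimulated genes in 2 of 16. For *Icos* the changes differed by 3.03 ± 0.83, adjusted P = 0.149 and for *Usp18* by 0.36 ± 0.45, adjusted P = 0.758, so that a difference between the diets was not shown for either.

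**Figure D4:**
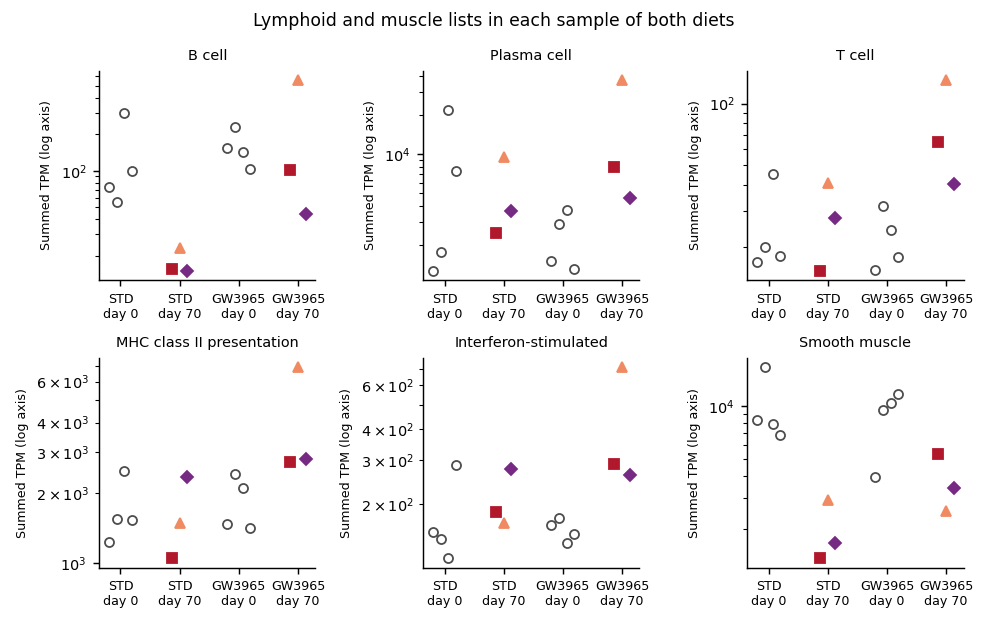
Summed TPM (log axes) of 6 lists in the 14 samples of days 0 and 70 of both diets, with day 0 samples as open circles and day 70 replicates 1, 2 and 3 as squares, triangles and diamonds. B cell RNA at day 70 was 15 to 23 TPM on the standard diet and 44.1 to 557 on GW3965, and day 0 samples ranged from 55.7 to 300.

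Of 13 metalloproteinases and inhibitors, 9 were called higher and 4 did not pass the test (median 2.99). *Mmp10*, of wound-edge epithelium (ENSMUSG00000047562.3, chromosome 9, 7502352 to 7510240), had 0.639, 0.909, 0.397 and 0.0994 CPM at day 0 and 5.17, 18.6 and 87.3 CPM at day 70, a log2 change of 6.15 (standard error 0.85, adjusted P = 5.78e-05), and *Mmp14*, a membrane-bound collagenase, had 61.7, 63.1, 56.9 and 56 CPM and 159, 132 and 241 CPM, a log2 change of 1.58 (standard error 0.27, adjusted P = 0.000353). Both were highest in replicate 3. *Mmp9* (3.61), *Mmp3* (3.80), *Mmp13* (4.48) and the inhibitor *Timp1* (2.99) rose too. Collagen and matrix genes rose in 8 of 17 cases and fell in 1, *Postn* (-0.85, adjusted P = 0.0428). *Lox*, which cross-links collagen (ENSMUSG00000024529.14, chromosome 18, 52516067 to 52529867), had 3.14, 6.32, 5.03 and 5.67 CPM at day 0 and 42.3, 23.4 and 31 CPM at day 70, a log2 change of 2.67 (standard error 0.43, adjusted P = 0.000217), and the basement membrane collagen *Col4a1* had 107, 158, 133 and 141 CPM and 346, 239 and 296 CPM, a log2 change of 1.13 (standard error 0.23, adjusted P = 0.00171). *Col5a2* (1.25), *Col12a1* (1.30), *Col1a1* (1.74) and *Col1a2* (1.10) rose. *Lox* and *Col4a1* were highest in replicate 1, and 4 of the 17 genes were called higher without it. Of 11 endothelial genes, *Cdh5* (1.16, adjusted P = 0.0122) and *Vwf* (1.40, adjusted P = 0.00765) were called higher, beside 14.7% of all genes. Without replicate 1 edgeR called 0 of the 11 (0 higher and 2 lower at an unadjusted P under 0.05). DESeq2 with all samples called 2 higher and 1 lower, and without replicate 2 edgeR called 4 higher.

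Some smooth muscle and enteric nerve genes fell. *Tagln*, an actin-binding protein of smooth muscle (ENSMUSG00000032085.5, chromosome 9, 45929619 to 45936058), had 1623, 3008, 3764 and 4266 CPM at day 0 and 1350, 697 and 1154 CPM at day 70, a log2 change of -1.57 (standard error 0.44, adjusted P = 0.0141), and *Cnn1* had 579, 1251, 1259 and 1337 CPM and 448, 281 and 389 CPM, a log2 change of -1.57 (standard error 0.45, adjusted P = 0.0155). These were the 2 of 12 smooth muscle genes called (median -1.10), while *Myh11* (-0.87, adjusted P = 0.313) and *Des* (-0.89, adjusted P = 0.235) did not pass. Day 0 itself was uneven, since replicate 1 of 22 diet days had 3920 TPM over the list and the other 3 had 9470 to 11600. Without replicate 1 of day 70 or this day 0 sample 5 genes were called, and without replicate 2 of day 70 0 (edgeR, 2 at an unadjusted P under 0.05, with 7 called by DESeq2 on all samples). The part of muscle wall content of the tissue pieces was not tested. Of 13 genes of enteric neurons and glia, 5 fell and 8 did not pass the test (median -1.05). *Snap25*, of the synapse, had 7.52, 12.9, 10.8 and 14.1 CPM at day 0 and 6.55, 3.21 and 4.03 CPM at day 70 (log2 change -1.31 ± 0.32, adjusted P = 0.00558). The others that fell were *Uchl1* (-1.39), *Vip* (-1.55), *Elavl4* (-1.45) and the glial gene *S100b* (-1.85). Lower calls numbered 1 without replicate 2, with 1 gene called higher, and 3 without day 0 replicate 2 of 43 diet days.

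Genes of skeletal muscle and stratified epithelium, which normal colon barely expresses, were called higher. All 12 skeletal muscle genes were called higher (median 9.60), and replicate 1 decided this. Genes nearly absent at day 0 pass the filter only through samples that hold them, so counts over these lists are partly set by the filter. In a fit of the 7 samples alone 7 skeletal muscle genes passed the filter and 3 were called. DESeq2 gave an adjusted P for 3 of them and called all 3. *Acta1*, skeletal muscle actin (ENSMUSG00000031972.5, chromosome 8, 123891769 to 123894751), had 3.59, 5.41, 1.81 and 2.39 CPM at day 0 and 5910, 4.24 and 4.56 CPM at day 70, a log2 change of 9.22 (standard error 1.92, adjusted P = 0.00187), and *Atp2a1*, a calcium pump of fast muscle fibres, had 2 counts over the day 0 samples and 3376, 0.258 and 0.0707 CPM at day 70. Without replicate 1 edgeR called 0 of the 12, none with an unadjusted P under 0.05, and the median was -1.06. All 16 stratified epithelium genes were called higher (median 10.14, the same with the 3 genes at 0 counts on day 0 set to a floor of 3 counts over the group). In a fit of the 7 samples alone 8 of them passed the filter, and all 8 were called. *Krt5*, the basal keratin (ENSMUSG00000061527.7, chromosome 15, 101707070 to 101712898), had 0.246, 0.303, 0.353 and 0.298 CPM at day 0 and 2497, 0.221 and 3070 CPM at day 70, a log2 change of 12.56 (standard error 1.78, adjusted P = 7.6e-05), and *Krt13*, of non-cornified squamous lining, had 0.344, 0.13, 0.177 and 0 CPM and 4968, 1.55 and 2106 CPM, a log2 change of 13.77 (standard error 1.84, adjusted P = 4.74e-05). All 16 were still called without replicate 1, and in replicate 2 alone edgeR called 0 (2 at an unadjusted P under 0.05). On the standard diet the same list had 2860 to 5490 TPM in all 3 day 70 samples.

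Of 12 genes of position along the gut, 1 was called higher and 2 lower, beside 14.7% and 6.82% of all genes. *Hoxb13*, the most posterior HOXB gene, which marks the distal colon and rectum (ENSMUSG00000049604.3, chromosome 11, 96194316 to 96197447), had 748, 493, 443 and 466 CPM at day 0 and 60.9, 205 and 165 CPM at day 70, a log2 change of -1.90 (standard error 0.33, adjusted P = 0.00047). It was lower in all 3 day 70 samples and lowest in replicate 1, in which colonic epithelium markers were also lowest. *Hoxa11* (-0.79) fell and *Hoxb7* (1.30) rose, but leaving out 1 sample gave from 1 call in all, without replicate 1 of day 70 among others, to 5, without replicate 2. Of the 12 general markers of colonic epithelium, *Cdx1*, an intestinal transcription factor, fell from 484, 376, 356 and 326 CPM to 54.3, 242 and 155 CPM, a log2 change of -1.36 (standard error 0.40, adjusted P = 0.0192), whereas *Epcam* (-0.29, adjusted P = 0.577), *Cdh1* (-0.06, adjusted P = 0.921) and *Krt8* (-0.58, adjusted P = 0.315) did not pass the test. The call of *Cdx1* was lost without replicate 1 or 3 of day 70 or day 0 replicate 1 of 22 diet days, and without replicate 2 4 of the 12 were called lower. Of 13 mitochondrially encoded genes, edgeR and DESeq2 called 0, with 1 lower gene at an unadjusted P under 0.05 in each (median 0.09). *mt-Co1*, a subunit of cytochrome c oxidase, had 19000, 14350, 19160 and 18230 CPM at day 0 and 23770, 12890 and 12910 CPM at day 70, a log2 change of -0.10 (standard error 0.40, adjusted P = 0.89), and *mt-Co3* one of -0.35 (standard error 0.35, adjusted P = 0.519). The share of counts on ribosomal protein mRNA was 4.4% to 6.04% at day 70 and 6.21% to 7.2% at day 0.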

How the data were processed

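RNA of mouse colon was sequenced in 26 samples of 8 groups of diet and day, and 7 of them are compared here (3 of day 70, 4 of day 0). The authors quantified transcripts with Kallisto on GRCm38, and the deposited tables hold estimated counts and TPM per transcript; the Kallisto version and annotation release are not given in the sources used here. Estimated counts were summed per gene with the GENCODE transcript annotation of GRCm38 (97.8% of transcripts matched, and the unmatched ones held 0.615% to 0.999% of counts per sample) and rounded to whole numbers. Kallisto divides reads among similar transcripts, so near-identical paralogs (*Mcpt1* and *Mcpt2*, *Clca4a* and *Clca4b*, *Ccl21a*, immunoglobulin genes) are uncertain. CPM are shares of the sample's TMM-scaled total count. All 26 samples were fitted in 1 model with edgeR 4.0.16 in R 4.3.3 (TMM, filterByExpr over the 8 groups, quasi-likelihood F-test, Benjamini-Hochberg adjustment over 17063 genes), with an adjusted P under 0.05 taken as a call. Standard errors are the log2 change divided by the square root of F. The study also corrected for ribosomal RNA, which cDNA tables do not hold, so the share of counts on ribosomal protein mRNA served as an alternative term. On simulated data edgeR recovered 79% of 100 genes changed by 2 on the log2 scale and 28% of 100 changed by 1, with 8 other genes called among 16850. For the difference between the diets 56% and 6% were recovered, with 3 other genes called. The number of changed genes helps set the P needed for a call. In the simulation 200 genes were changed, while the data gave 3677 calls in the GW3965 contrast and 1 in the difference. The recovered shares therefore do not measure the sensitivity in the data.

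Named were the 8 protein-coding genes of smallest P without overlap in each direction, up to 4 called members of smallest P in each list (with no call, the 2 of highest mean CPM), *Abca1*, *Abcg1*, *Srebf1* and genes called in the difference between the diets. A few genes that this rule names are not reported here, and other list members were named with their values known. The comparison and the gene lists were chosen with earlier results of these data known, so counts over a list describe it and are not tested. Replicates are separate samples by their labels, and nothing in the labels says that samples of 1 number belong together. Depth was 18328026 to 27251607 counts per sample. Alternatives were DESeq2 1.42.0, its size factors, no filter, the ribosomal protein term, fewer samples, a replicate block and leaving out each of the samples compared in turn. Fitting day 70 replicate 2 alone was chosen after seeing the data.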

Additional observations from a re-analysis of the deposited data

Results flagged for a closer look

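Among the 118 genes looked at for a sample far from the others, 11 had a day 0 sample that stood apart from the other 3 (Dixon's criterion at the 95% level, which flags about 1 in 20 groups by chance). In 7 of them the sample was replicate 1 of 22 diet days, with 269 CPM of *Sult1a1*, 124 of *Fdps*, 537 of *Hsd11b2*, 1219 of *Tff3*, 1.33 of *Pla2g2a* and 748 of *Hoxb13*, each above the other 3 samples, and 579 of *Cnn1*, below them. This sample also had the lowest summed level of smooth muscle genes at day 0 (3920 TPM against 9470 to 11600). Replicate 2 of 43 diet days, the sample whose diet label and title differ, had 17.4 CPM of *Zc3h12a* and 0 of *Retnlb*. Replicate 1 of 43 diet days had 27.1 CPM of *Clca4b*, and replicate 2 of 22 diet days 0.0866 CPM of *Atp2a1*.

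*Enpp2* was picked out by the test of the difference between the diets, with a log2 change 2.13 higher on GW3965 than on the standard diet.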

How the results depend on the processing

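The number of genes called higher (2513) was 684 for day 70 replicate 2 alone, 1476 in a fit of the 7 samples, 858 against day 0 samples of 22 diet days and 1040 against those of 43, and that of genes called lower (1164) was 154, 1251, 400 and 441. In the fit of 7 samples 2185 of 2727 calls were shared with the fit of all. Leaving out 1 of the 7 samples compared gave 1825 to 2453 higher and 732 to 1344 lower genes, and leaving out the standard diet day 43 sample of RNA integrity number 2.6 gave 3202 and 1516, with 2 tuft cell and 2 gut position genes called higher in place of 1 and 1, and 1 mast cell and 1 endothelial gene lower in place of 0. DESeq2 called 2584 and 1673, and the other alternatives stayed within 1.5 times. The single gene that differed between the diets became 0 with the ribosomal protein term, with the 14 samples of days 0 and 70 and against either set of day 0 samples, 5 without the sample of RNA integrity number 2.6, 287 with DESeq2 and 0 to 474 when 1 of the 14 samples of days 0 and 70 was left out; the cause was not tested. Deviations from the group mean correlated between -0.37 and 0.0944 in same-numbered samples and between -0.257 and 0.393 in other pairs. These values gave no sign of pairing by number, but in groups this small they cannot exclude it. A replicate block gave 2185 higher, 1020 lower and 1 differing gene.

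Of the named genes, *Gsta4* was at -0.08, *Krt5* at -0.44 and *Actn3* at -1.07 on the log2 scale in replicate 2 alone, and leaving out 1 sample gave -2.04 to 10.6 for *Actn3*, -1.38 to 0.99 for *Cd79a*, -1.57 to 0.8 for *Cd79b* and -0.47 to 0.05 for *mt-Co1*. *Cd79b* was at -0.02 against 22 diet days. *Srebf1*, near 0 in the fit of all samples, was at -0.04 with the ribosomal protein term and with either DESeq2 setting, -0.08 with the 7 samples, 0 without the sample of low RNA integrity, -0.03 without a filter and with the block, -0.05 against 22 diet days, -0.24 in replicate 2 alone and -0.14 to 0.1 when 1 sample was left out, with -0.01 in 2 of these fits.

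With 18328026 to 27251607 counts per sample and 3 against 4 samples, a gene that did not pass the test is not shown to be unchanged. In the simulation 28% of log2 changes of 1 were called. Only 200 genes were changed there, against 3677 called in the data, so this share does not measure the sensitivity of the comparison.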
